A study of Mus musculus with 5 samples.

Results

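The genes described here encode receptors through which splenic natural killer (NK) cells in mice receive IL-12, IL-18, IL-21 and interferons, together with the transcription factor STAT4. They were chosen by symbol, as Il12rb1, Il12rb2, Il18r1, Il18rap, Il21r, Ifngr1, Ifnar1 and Stat4, and all 8 were found among the 13004 genes of the deposited table. All 8 also passed the filter on low values that left 11190 genes for testing. RNA had been sequenced from spleen cells of 8-week C57BL/6 mice, sorted as live, CD3-negative, NK1.1-positive and DX5-positive. The MycKO group (genotype Mycdelta/delta/Ncr1Cre, replicates 5 and 6) had 2 libraries, and the control group (Mycf/f, replicates 1, 2 and 3) had 3. In MycKO mice, Cre recombinase under the control of Ncr1, a gene of NK cells and of some innate lymphoid cells, deleted loxP-flanked Myc. The control genotype names no Cre, so carrying Cre and losing Myc cannot be told apart. No label ties a library to a mouse of its own, so the tests measure the spread between these libraries, which may be technical.

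IL-12 binds a receptor of the IL12RB1 and IL12RB2 chains, and the kinases TYK2 and JAK2 on these chains activate STAT4. IL-18 binds IL18R1, which recruits the accessory chain IL18RAP and signals through the adaptor MYD88. NK cells exposed to IL-12 and IL-18 together release large amounts of interferon-gamma, and IL-21, which acts through IL21R and the common gamma chain, promotes their effector functions. IFNGR1 and IFNAR1 are chains of the receptors for interferon-gamma and for type I interferons.

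The upstream sequences of the genes with the smallest p-values are shown, since these are the receptors whose levels were most unlike between the groups. Each is the stretch of 250 bases before the annotated transcription start, 5′ to 3′ on the strand of the gene, from RefSeq on GRCm38.p6 (the mm10 assembly). They lie at chr7:125603179-125603428 on the plus strand for Il21r, chr1:40515112-40515361 on the plus strand for Il18rap and chr6:67376189-67376438 on the minus strand for Il12rb2. Capitals mark matches to TTCNNNGAA, the GAS element that STAT proteins bind.
Il21r: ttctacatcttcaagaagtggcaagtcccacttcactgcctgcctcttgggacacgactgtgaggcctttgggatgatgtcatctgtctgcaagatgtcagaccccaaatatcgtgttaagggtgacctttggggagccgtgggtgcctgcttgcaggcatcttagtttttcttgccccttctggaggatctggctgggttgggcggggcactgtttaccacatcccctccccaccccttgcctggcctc
Il18rap: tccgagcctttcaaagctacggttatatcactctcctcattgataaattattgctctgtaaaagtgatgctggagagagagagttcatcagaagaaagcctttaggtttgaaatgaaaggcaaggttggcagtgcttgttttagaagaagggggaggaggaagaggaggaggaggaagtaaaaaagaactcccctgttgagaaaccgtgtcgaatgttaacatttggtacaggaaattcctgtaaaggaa
Il12rb2: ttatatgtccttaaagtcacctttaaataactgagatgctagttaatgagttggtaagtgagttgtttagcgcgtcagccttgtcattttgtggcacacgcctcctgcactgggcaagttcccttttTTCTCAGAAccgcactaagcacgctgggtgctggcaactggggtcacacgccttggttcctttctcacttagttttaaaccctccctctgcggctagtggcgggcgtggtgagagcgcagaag
RefSeq windows of 300 bases (250 before to 50 after a start) were at hand for 7 of the 8 genes, in 10 windows, and Il12rb1 was not matched. None of the 10 windows held CACGTG, the E-box that MYC and MAX bind, which was present in 7.15% of all 32851 windows. GAS matches were found in 3 of the 10 windows, against 8.30% of all windows. These were the window of Il12rb2, 123 bases before the start, that of Ifnar1, and 1 of the 3 windows of Il18r1, which held 2 matches. Both motifs read the same on either strand, and a match is a description of the letters only.

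Sorted cells carried the defining NK transcripts in every library. The summed level of 8 NK cell markers was 8126 and 9777 RPKM (reads scaled to transcript length and library size) in MycKO 5 and 6, against 12329, 10671 and 11444 RPKM in controls 1, 2 and 3. Gzma, the granzyme A gene, made up most of that sum. Without Gzma, a comparison added after seeing the data, the other 7 markers summed to 3427 and 4158 RPKM in MycKO, against 5078, 3777 and 4860 RPKM in controls, and the groups overlapped. The groups also overlapped for the receptor genes Klrb1c, Klrd1 and Klrk1. For the other 5 markers, Ncr1, Eomes, Itga2, Prf1 and Gzma, both MycKO libraries lay below every control (10.4% of all genes). These 5 had an unadjusted limma p under 0.05, against 13.2% of all genes. limma called 0 of the 8, while limma-voom and the authors' test each called 3 as lower. Myc, the targeted gene, was at 12.5 and 8.70 RPKM in MycKO and at 13.0, 23.0 and 21.2 RPKM in controls, with a limma adjusted p of 0.297. The sources used here do not state which exons were deleted, so the level over the whole gene does not check the deletion. Ncr1, whose promoter drives Cre, was at 632.8 and 744.1 RPKM in MycKO, against 1619, 930.8 and 1243 RPKM in controls. It is included in the NK cell marker sums, and the part of Cre in its level was not tested. MycKO libraries also held more transcripts of other spleen cells. All 11 macrophage and monocyte markers had a log2 difference above 0, and limma called 9, against 1.24% of all genes called higher. Their sum was 1529 and 1410 RPKM in MycKO, against 268.5 to 422.6 RPKM in controls. Lyz2, the most abundant, was at 733.6 and 210.5 RPKM in MycKO and 55.1 to 219.7 RPKM in controls, so the groups overlapped. Without Lyz2 the other 10 summed to 795.9 and 1199.8 RPKM in MycKO, against 177.8 to 213.4 RPKM in controls. The sum of 10 B and plasma cell markers was 402.9 and 756 RPKM in MycKO, against 129.2 to 184.4 RPKM in controls. All 10 had a log2 difference above 0, 7 had an unadjusted limma p under 0.05 (13.2% of all genes), and limma called 1. The sum of 10 T cell markers was 199 and 264.1 RPKM in MycKO, against 103 to 122.6 RPKM in controls. Of the 9 tested, 6 had a log2 difference above 0 and 3 below, and limma called 3, all as higher. That list includes Cd247, Cd28 and Lef1, which NK cells express as well. The sums of neutrophil and basophil markers (555.3 and 220.9 RPKM in MycKO, 26.2 to 64.0 RPKM in controls) and of red cell and platelet markers (206.8 and 85.8 RPKM in MycKO, 4.3 to 8.5 RPKM in controls) were higher as well. Of the neutrophil and basophil genes, Mpo and Mcpt8 were listed at 0 in every control. Dendritic cell markers summed to 282.7 and 231.6 RPKM in MycKO, against 183.1 to 221.5 RPKM in controls, and most of that was Itgax, which NK cells also express. Without Itgax the other 7 summed to 47.9 and 28.5 RPKM in MycKO, against 5.89 to 10.2 RPKM in controls. The median log2 difference of the 8 dendritic cell markers was 1.53, with 0 called by limma, 5 at an unadjusted p under 0.05, 0 called by limma-voom and 1 by the authors' test. In whole-population RNA, fewer cells of a type and less RNA per cell cannot be told apart.

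The receptor genes and Stat4 differed little between the groups, with the exception of Il21r, which was at higher levels in both MycKO libraries. None of the 8 genes passed limma at an adjusted p under 0.05, the threshold that 1.34% of all genes tested passed. At an unadjusted p under 0.05 there were 3 of 8, Il21r, Il18rap and Il12rb2, against 13.2% of all genes. limma-voom on reads called 1 of 8, Il21r as higher, against 2.0% of all genes (1.72% higher and 0.286% lower). The authors' deposited test also called 1, Il21r as higher, against 3.4% of its genes (2.9% higher and 0.5% lower). The groups did not overlap for 5 of the 8 genes, against 29.1% of all genes tested. MycKO lay above control for Il21r and Ifnar1 (18.8% of all genes) and below it for Il12rb2, Il18rap and Stat4 (10.4% of all genes). Of the 8 log2 differences, 3 were above 0 and 5 below, with a median of -0.12, against a median of 0.05 over all genes tested.

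**Figure D1:**
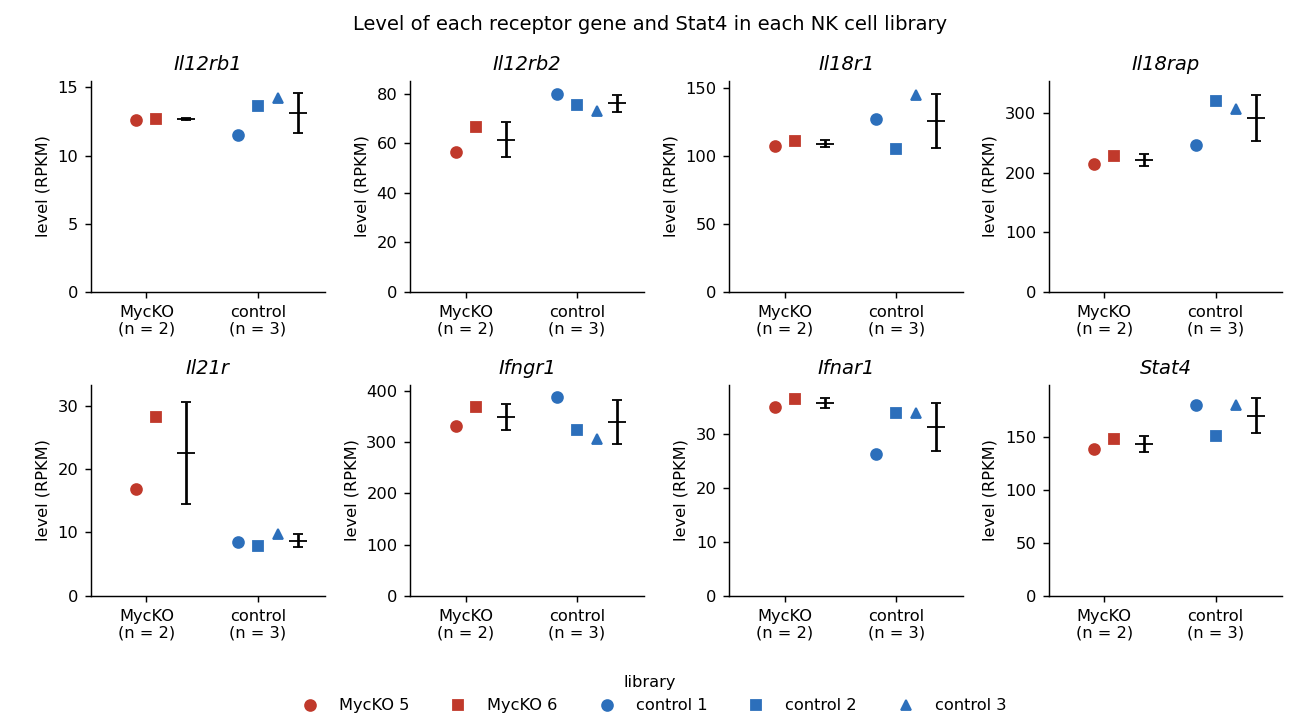
Level in RPKM of each of the 8 genes in each library, with MycKO in red (n = 2) and control in blue (n = 3), and the mean ± SD in black beside the points. Both MycKO libraries lie above all controls for Il21r and Ifnar1 and below them for Il12rb2, Il18rap and Stat4.

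The 8 genes covered a wide range of levels. In MycKO the mean level ran down from Ifngr1 (349.4 RPKM) through Il18rap, Stat4, Il18r1, Il12rb2, Ifnar1 and Il21r to Il12rb1 (12.7 RPKM), and no neighbours in this order had overlapping ranges. In controls it ran from Ifngr1 (338.6 RPKM) to Il21r (8.74 RPKM), and the ranges of Ifngr1 and Il18rap overlapped while those of the other neighbours did not. Il21r and Il12rb1 exchanged places between the groups, and the order of the other genes was the same. In controls, Ifngr1, Il18rap, Stat4, Il18r1 and Il12rb2 lay between the 93.2nd and the 98.8th percentile of all genes in the table. Ifnar1 was at the 80.4th percentile, Il12rb1 at the 59.4th and Il21r at the 49.4th.

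Transcripts of the IL-12 receptor were unequal, with much more of Il12rb2, the chain that carries the STAT4 docking sites, than of Il12rb1, which the IL-23 receptor also uses. Il12rb1 (Entrez 16161; mm10 chromosome 8, 70808449 to 70821424, plus strand) was at 12.63 and 12.71 RPKM in MycKO 5 and 6, against 11.5, 13.7 and 14.2 RPKM in controls 1, 2 and 3. The MycKO values lay inside the control range. Its log2 difference was -0.04 (95% interval -0.47 to 0.39, limma adjusted p = 0.965), and it turned to 0.016 without control 3. Il12rb2 (Entrez 16162; chromosome 6, 67291318 to 67376188, minus strand) was at 56.6 and 66.5 RPKM in MycKO 5 and 6, against 79.8, 75.7 and 73.1 RPKM in controls. Both MycKO libraries lay below every control, with MycKO 5 the lower. The log2 difference was -0.31 (SE 0.12, 95% interval -0.59 to -0.03), with an unadjusted limma p of 0.0348 and an adjusted p of 0.332, so it did not pass. Il12rb2 overlaps Serbp1 on the opposite strand, and the sources used here do not state whether reads were counted by strand.

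Relative to Il12rb1, the level of Il12rb2 per length was 4.48 and 5.23 times as high in MycKO 5 and 6, against 6.96, 5.54 and 5.14 times in controls 1, 2 and 3. MycKO 6 lay inside the control range. The log2 ratio of Il12rb1 to Il12rb2 averaged -2.28 ± 0.16 in MycKO (SD, n = 2) and -2.54 ± 0.23 in controls (SD, n = 3). Its difference of 0.27 had a two-sided exact permutation p of 0.4, where 0.2 is the smallest p that 2 against 3 libraries can give, and it ranged from 0.14 without control 1 to 0.38 without MycKO 6.

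Both chains of the IL-18 receptor were among the abundant transcripts. Il18r1, the chain that binds IL-18 (Entrez 16182; chromosome 1, 40465552 to 40500854, plus strand), was at 107.7 and 111.1 RPKM in MycKO 5 and 6, against 127.3, 105.2 and 145.3 RPKM in controls 1, 2 and 3. Control 2 lay below both MycKO libraries, so the groups overlapped. The log2 difference was -0.19 (95% interval -0.53 to 0.15, limma adjusted p = 0.691), and it ranged from -0.31 without control 2 to -0.08 without control 3. Il18rap, the accessory chain (Entrez 16174; chromosome 1, 40515362 to 40551705, plus strand), begins 14.5 kb beyond the end of Il18r1 on the same strand. It was at 214.5 and 229 RPKM in MycKO 5 and 6, against 247.5, 321.2 and 307.6 RPKM in controls 1, 2 and 3. Both MycKO libraries lay below all controls, and control 1 was nearest to them. The mean was 221.7 ± 10.3 RPKM in MycKO (SD, n = 2) and 292.1 ± 39.2 RPKM in controls (SD, n = 3). The log2 difference was -0.39 (SE 0.13, 95% interval -0.70 to -0.08), with an unadjusted limma p of 0.0215 and an adjusted p of 0.266. limma-voom gave it an adjusted p of 0.0945 and the authors' deposited table one of 0.0800, so it did not pass in any of these tests.

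Il18rap was at 1.99 and 2.06 times the level of Il18r1 in MycKO 5 and 6, against 1.94, 3.05 and 2.12 times in controls 1, 2 and 3. Control 2 stood apart, with the lowest Il18r1 and the highest Il18rap of the controls. The log2 ratio of Il18r1 to Il18rap was -1.02 ± 0.04 in MycKO (SD, n = 2) and -1.22 ± 0.35 in controls (SD, n = 3). The difference of 0.20 had a two-sided exact permutation p of 0.6, and without control 2 it was 0.0016.

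Il21r, which encodes the chain that binds IL-21 (Entrez 60504; chromosome 7, 125603429 to 125633570, plus strand), had by far the largest difference of the 8 genes. It was at 16.9 and 28.2 RPKM in MycKO 5 and 6, against 8.51, 7.90 and 9.79 RPKM in controls 1, 2 and 3. Both MycKO libraries lay above every control, and MycKO 6 was well above MycKO 5. These values rest on 240 and 981 reads in MycKO 5 and 6, and on 334, 363 and 365 reads in controls. The exact Poisson 95% interval, which covers counting error only, was 14.8 to 19.1 RPKM in MycKO 5 and 26.5 to 30.0 RPKM in MycKO 6. In control 3, the highest control, it was 8.81 to 10.9 RPKM. Counting error thus spans neither the gap between the groups nor the gap between the MycKO libraries.

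The mean of Il21r was 22.5 ± 8.01 RPKM in MycKO (SD, n = 2) and 8.74 ± 0.965 RPKM in controls (SD, n = 3), a ratio of 2.58. On the log2(RPKM + 1) scale, which understates changes at low level, the difference was 1.23 (SE 0.25, 95% interval 0.65 to 1.82). The limma adjusted p was 0.0695, just short of the threshold, and Il21r ranked 218th of the 11190 genes by p. limma-voom put the log2 difference at 1.43 with an adjusted p of 0.0163, and the authors' deposited table gives 1.31 with an adjusted p of 0.00118. The difference ranged from 0.88 without MycKO 6 to 1.59 without MycKO 5, with limma adjusted p-values of 0.0809 to 0.316 over the fits that left out each library.

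Il2rg, the common gamma chain that pairs with IL21R, was at 353.2 and 364.9 RPKM in MycKO 5 and 6, against 418.2, 334.5 and 365.2 RPKM in controls 1, 2 and 3. The groups overlapped, and the log2 difference was -0.05 (limma adjusted p = 0.935), which turned to 0.039 without control 1. Il2rg was 20.9 and 12.9 times the level of Il21r in MycKO 5 and 6, against 49.1, 42.3 and 37.3 times in controls. The ratio was lower in both MycKO libraries than in any control.

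B cells and T cells are known to express Il21r as well as NK cells. B and plasma cell markers summed to 402.9 RPKM in MycKO 5 and 756 RPKM in MycKO 6, and T cell markers to 199 and 264.1 RPKM. Each sum was higher in the library with more Il21r. The NK cell marker sum (8126 and 9777 RPKM) and the macrophage and monocyte sum without Lyz2 (795.9 and 1199.8 RPKM) had the same order. With Lyz2, the macrophage and monocyte sum (1529 and 1410 RPKM) was higher in MycKO 5. So were the sums of dendritic cell, of neutrophil and basophil, and of red cell and platelet markers. The T cell gene Cd4 was also higher in MycKO 5, at 7.16 and 1.04 RPKM in MycKO 5 and 6, against 0.723 to 0.935 RPKM in controls. The T cell receptor gene Cd3e was at 13.5 and 38.2 RPKM in MycKO 5 and 6, against 2.91, 3.08 and 1.36 RPKM in controls. Cd247, the most abundant gene of the T cell list, was at 39.9 and 40.1 RPKM in MycKO, against 46.4, 40.3 and 44.0 RPKM in controls. Jchain, which encodes the antibody joining chain and was the most abundant gene of the B and plasma cell list, was at 232.3 and 580.1 RPKM in MycKO, against 80.2, 45.0 and 34.8 RPKM in controls. Without Jchain the other 9 genes of that list summed to 170.6 and 176.0 RPKM in MycKO 5 and 6, against 84.2 to 104.2 RPKM in controls, so the MycKO libraries were then close to each other. Ms4a1, which encodes CD20, was at 23.5 RPKM in MycKO 5 and 14.8 RPKM in MycKO 6, against 9.69 to 12.3 RPKM in controls. Type 1 innate lymphoid cell markers summed to 84.1 and 127.5 RPKM in MycKO, against 29.3 to 33.3 RPKM in controls. All 8 had a log2 difference above 0, 7 had an unadjusted limma p under 0.05 (13.2% of all genes), and limma called 1 (1.24% of all genes called higher). None of the T cell, B cell or innate lymphoid markers was at 0 in all libraries of either group. The part of these cells in the level of Il21r was not tested.

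**Figure D2:**
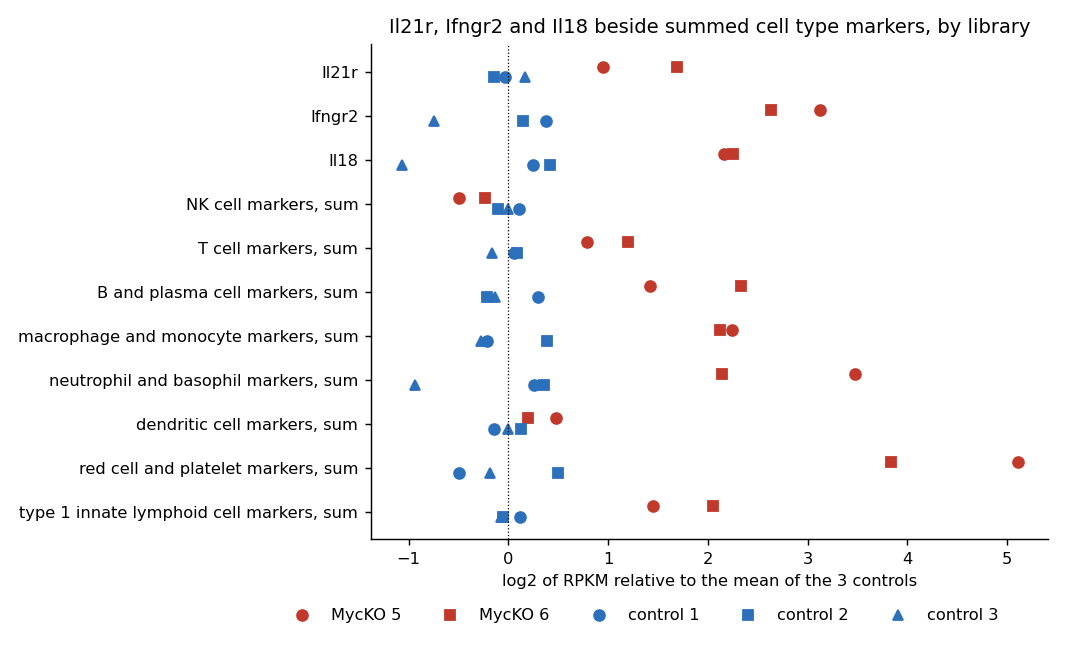
Levels of Il21r, Ifngr2 and Il18 and summed levels of 8 marker lists in each library, as log2 of RPKM relative to the mean of the controls, with MycKO in red (n = 2) and control in blue (n = 3). Il21r, T cell, B cell and innate lymphoid markers are higher in MycKO 6 than in MycKO 5, the B and plasma cell sum through Jchain. Neutrophil and basophil markers, at 555.3 and 220.9 RPKM, are higher in MycKO 5. So are the macrophage and monocyte, dendritic cell, and red cell and platelet sums.

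Ifngr1, the chain that binds interferon-gamma (Entrez 15979; chromosome 10, 19591949 to 19610229, plus strand), was the most abundant of the 8 genes. It was at 331.1 and 367.6 RPKM in MycKO 5 and 6, against 387.3, 322.7 and 305.9 RPKM in controls 1, 2 and 3. The groups overlapped fully. The log2 difference was 0.05 (95% interval -0.25 to 0.35, limma adjusted p = 0.937), and its sign turned under median-of-ratios scaling, in the authors' deposited table, and without MycKO 6 or control 3.

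Ifngr2, the signalling chain of the same receptor, was scarce and rose in MycKO. It was at 13.8 and 9.85 RPKM in MycKO 5 and 6, against 2.05, 1.76 and 0.946 RPKM in controls 1, 2 and 3. Both MycKO libraries lay far above every control. Ifngr2 was higher by 2.32 on the log2 scale (SE 0.33; adjusted p = 0.0263 by limma). It no longer passed without MycKO 5 (adjusted p = 0.251), MycKO 6 (0.101), control 1 (0.0663) or control 3 (0.0779). Ifngr1 was thus at 24.0 and 37.3 times the level of Ifngr2 in MycKO 5 and 6, against 188.6, 183.9 and 323.3 times in controls. Macrophages are known to express both chains. The macrophage and monocyte markers summed to 1529 and 1410 RPKM in MycKO 5 and 6, against 279.8, 422.6 and 268.5 RPKM in controls. Without Lyz2 that sum was 795.9 and 1199.8 RPKM in MycKO 5 and 6, the reverse order, against 177.8 to 213.4 RPKM in controls. The part of macrophages in the level of Ifngr2 was not tested.

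Ifnar1, a chain of the type I interferon receptor (Entrez 15975; chromosome 16, 91485238 to 91507441, plus strand), was at 35.0 and 36.3 RPKM in MycKO 5 and 6, against 26.1, 33.9 and 33.7 RPKM in controls 1, 2 and 3. The MycKO libraries lay above all controls by a small margin, and control 1 was the lowest. For Ifnar1 the log2 difference was 0.19 (95% interval -0.17 to 0.56, limma adjusted p = 0.704), and without control 1 it was 0.08. Its partner Ifnar2 was at 31.2 and 29.9 RPKM in MycKO, against 24.4, 22.9 and 20.9 RPKM in controls. The groups did not overlap for Ifnar2 either, with a log2 difference of 0.41 and a limma adjusted p of 0.259. The ratio of Ifnar1 to Ifnar2 was 1.12 and 1.21 in MycKO 5 and 6, against 1.07, 1.48 and 1.62 in controls 1, 2 and 3, so the MycKO values lay inside the control range.

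**Figure D3:**
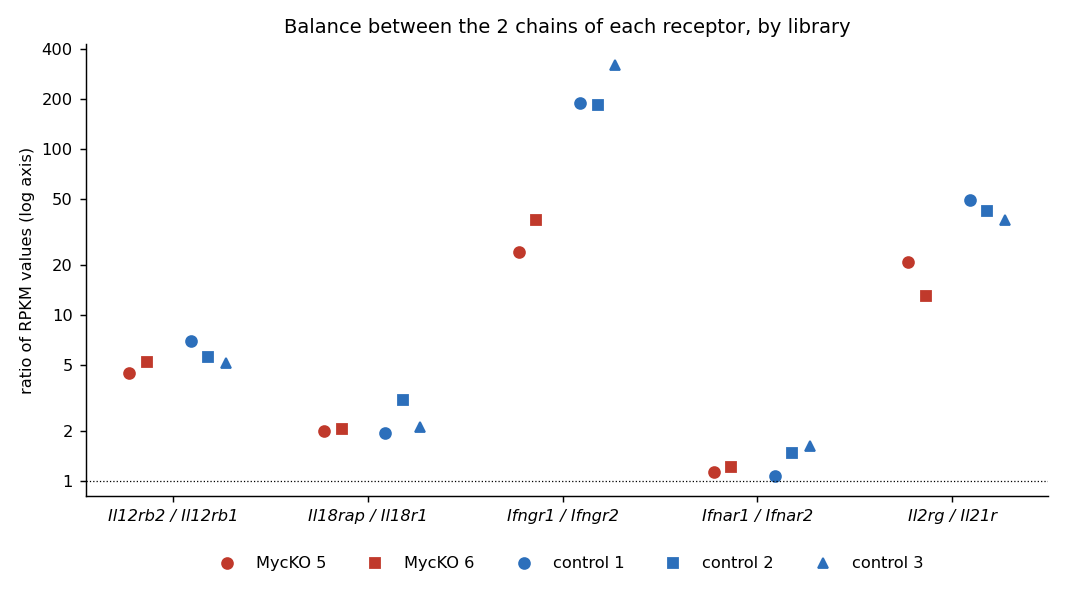
Ratio of RPKM values between the chains of each receptor in each library, on a log axis, with MycKO in red (n = 2) and control in blue (n = 3). The groups overlap for the type I interferon and IL-18 receptors and for the IL-12 receptor, while Ifngr1 over Ifngr2 and Il2rg over Il21r are lower in both MycKO libraries than in any control.

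Stat4, the transcription factor that IL-12 activates (Entrez 20849; chromosome 1, 51987148 to 52107189, plus strand), was at 138.3 and 148.5 RPKM in MycKO 5 and 6, against 179.8, 150.8 and 180.3 RPKM in controls 1, 2 and 3. Both MycKO libraries lay below the controls, and MycKO 6 was close to control 2. The mean was 143.4 ± 7.18 RPKM in MycKO (SD, n = 2) and 170.3 ± 16.9 RPKM in controls (SD, n = 3). Stat4 had a log2 difference of -0.24 (SE 0.12, 95% interval -0.52 to 0.03) with a limma adjusted p of 0.451.

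**Figure D4:**
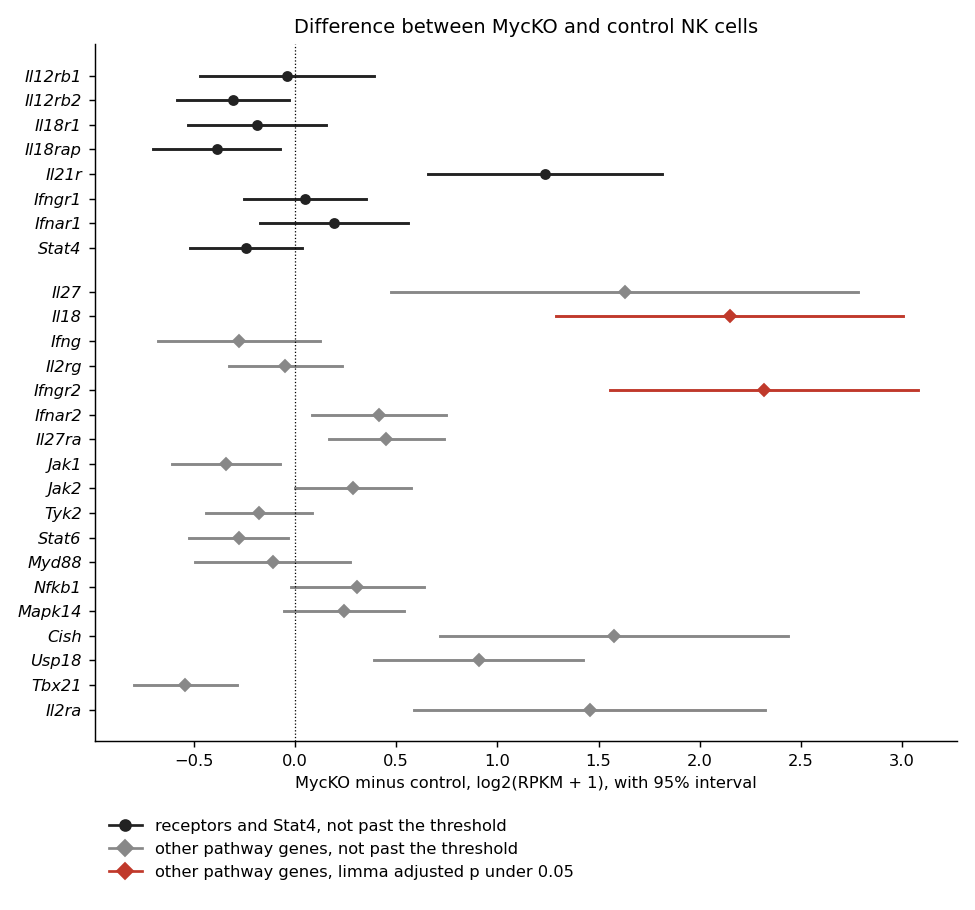
Difference between MycKO and control on the log2(RPKM + 1) scale, with its 95% interval from limma, for the 8 genes (black) and for other genes of the same pathways (grey, or red where the adjusted p was under 0.05). The intervals of Il12rb2 and Il18rap lie just below 0, that of Il21r lies between 0.65 and 1.82, and Ifngr2 and Il18 passed the threshold.

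Other genes of these pathways were taken from 6 lists of 59 genes, of which 55 were in the table and 53 were tested. limma called Il18 and Ifngr2 as higher and none as lower, against 1.24% higher and 0.0983% lower among all genes tested. Of the 53 log2 differences, 34 were above 0 and 19 below. The median log2 difference of the 53 was 0.18, against 0.05 for all genes. limma-voom and the authors' deposited test each called these genes as higher, and both called Tbx21 as lower.

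Among ligands, Il18 was at 29.6 and 31.5 RPKM in MycKO 5 and 6, against 7.82, 8.85 and 3.15 RPKM in controls 1, 2 and 3. Il18 is known to be produced by macrophages, whose markers were higher in the same libraries (1529 and 1410 RPKM, against 268.5 to 422.6 RPKM in controls). Without Lyz2 the sums were 795.9 and 1199.8 RPKM in MycKO, against 177.8 to 213.4 RPKM in controls. The part of macrophages in the level of Il18 was not tested. Il18 was higher by 2.15 on the log2 scale (SE 0.37; adjusted p = 0.0431 by limma). It no longer passed without MycKO 5 (adjusted p = 0.222), MycKO 6 (0.192) or control 1 (0.109), under median-of-ratios scaling (0.0513), with a pseudocount of 0.1 (0.0744) and with no filter (0.0564). Il27, which encodes a subunit of IL-27, had the next smallest p in that list, at 4.42 and 1.70 RPKM in MycKO and 0, 0 and 0.893 RPKM in controls (adjusted p = 0.204). Il12b, which encodes a subunit of IL-12, was listed at 0 in all 3 controls and at 1.10 and 0.179 RPKM in MycKO 5 and 6, and it was too low to be tested. Ifng itself, the interferon-gamma gene, was at 41.5 and 51.3 RPKM in MycKO 5 and 6, against 60.7, 46.3 and 62.8 RPKM in controls 1, 2 and 3. The groups overlapped, and the log2 difference was -0.28 (limma adjusted p = 0.596).

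Of the 7 partner chains tested, 5 had a log2 difference above 0 and 2 below. At an unadjusted limma p under 0.05 there were 4 of 7, against 13.2% of all genes. Ifngr2 was the only one called by limma, by limma-voom or by the authors' test. Il27ra, which encodes a chain of the IL-27 receptor, was at 44.8 and 48.3 RPKM in MycKO, against 32.6, 35.3 and 33.5 RPKM in controls (0.45, adjusted p = 0.157). The 8 kinase and STAT genes held 0 calls by limma, by limma-voom and by the authors' test, and 2 of them had an unadjusted p under 0.05, against 13.2% of all genes. Jak1, a kinase of the IL-21 and interferon receptors, was at 331.5 and 403.2 RPKM in MycKO, against 455.7, 465.4 and 467.6 RPKM in controls (-0.34, adjusted p = 0.254). Stat6, known from IL-4 signalling, was at -0.28 (adjusted p = 0.315). Of the kinases of the IL-12 receptor, Jak2 was at 56.3 and 51.2 RPKM in MycKO and 44.6, 46.3 and 40.7 RPKM in controls, and Tyk2 was at 59.2 and 63.4 RPKM in MycKO and 65.2, 71.1 and 72.5 RPKM in controls. The groups did not overlap for either kinase, with MycKO higher for Jak2 (0.29, adjusted p = 0.38) and lower for Tyk2 (-0.18, adjusted p = 0.602).

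In the MYD88 branch, which IL-18 uses, limma, limma-voom and the authors' test each called 0 of 9 genes, and none had an unadjusted limma p under 0.05. Myd88 was at 43.2 and 38.9 RPKM in MycKO, against 39.4, 53.9 and 41.0 RPKM in controls, a log2 difference of -0.11 that turned to 0.028 without control 2. The smallest p-values belonged to the NF-kappa-B subunit gene Nfkb1 (0.31, adjusted p = 0.416) and to Mapk14, which encodes the p38 kinase (0.24, adjusted p = 0.505). Of 11 inhibitors, 0 were called by limma, limma-voom or the authors' test, while 3 had an unadjusted limma p under 0.05 (13.2% of all genes). Cish, an inhibitor of cytokine signalling, was at 5.11 and 2.96 RPKM in MycKO, against 0.485, 0.584 and 0.905 RPKM in controls (1.58, adjusted p = 0.104). Usp18, an inhibitor of type I interferon signalling, was at 15.1 and 11.4 RPKM in MycKO, against 7.09, 6.22 and 6.36 RPKM in controls (0.91, adjusted p = 0.118).

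Of 13 target genes none passed limma, and 5 had an unadjusted p under 0.05, against 13.2% of all genes tested. Tbx21, which encodes T-bet, the factor that drives Ifng, had the smallest p. It was at 133.5 and 147.1 RPKM in MycKO 5 and 6, against 218.8, 190.1 and 206.0 RPKM in controls 1, 2 and 3. Both MycKO libraries lay well below every control. Its log2 difference of -0.54 (SE 0.11) had an adjusted p of 0.0695 by limma. Tbx21 passed without control 2 (adjusted p = 0.0481), in limma-voom (0.0197) and in the authors' deposited table (-0.61, adjusted p = 0.00272). With limma, Tbx21 did not pass under median-of-ratios or upper-quartile scaling, with a pseudocount of 0.1, with no filter, or without control 1 or control 3. Il2ra, the high-affinity IL-2 receptor chain that cytokines induce, was at 2.69 and 3.45 RPKM in MycKO, against 0.345, 0.295 and 0.853 RPKM in controls (1.46, adjusted p = 0.134). The sum of the 8 NK cell markers, 8126 and 9777 RPKM in MycKO against 10671 to 12329 RPKM in controls, was lower in the libraries where Tbx21, Stat4, Il12rb2 and Il18rap were lower. Without Gzma that sum overlapped between the groups (3427 and 4158 RPKM in MycKO, 3777 to 5078 RPKM in controls). Klrb1c and Klrd1 had log2 differences of 0.05 and 0.03 in the same libraries, while the other 6 markers were below 0. The median of the 8 was -0.31. limma called 0 of them, and limma-voom and the authors' test each called 3 as lower (0.286% and 0.5% of all genes). Ncr1, whose promoter drives Cre in MycKO, is among the 8 markers. The part of NK cell content in the levels of Tbx21, Stat4, Il12rb2 and Il18rap was not tested.

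**Figure D5:**
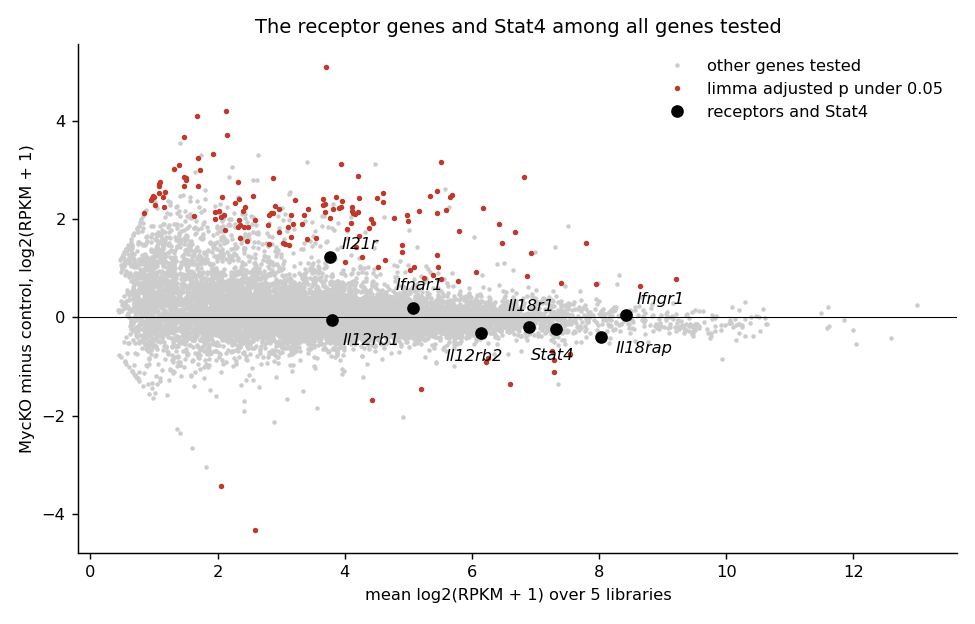
Difference between MycKO and control, log2(RPKM + 1), against the mean level over the 5 libraries for all 11190 genes tested, with genes past the limma threshold in red and the 8 genes in black. Il21r lies above the bulk of genes of like level, and the other 7 lie within 0.39 of 0.

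The profiles over the 5 libraries with the widest range on the log2 scale were those of Il21r (1.71) and Il18rap (0.58). Among 6993 genes with a mean of at least 3 on the log2 scale, the profiles nearest to Il21r, after subtracting each mean, were those of Pla2g15, a lysosomal phospholipase gene, the adaptor gene Cd2ap and the amino acid transporter gene Slc43a2. Their root mean square differences from Il21r over the 5 libraries were 0.14, 0.14 and 0.17 on the log2 scale. Pla2g15 was at 14.6 and 20.8 RPKM in MycKO 5 and 6, against 6.36, 7.41 and 6.93 RPKM in controls. Nearest to Il18rap were Tsfm, which encodes a mitochondrial elongation factor, Arl2bp and the acetyl-CoA synthetase gene Acss2, at 0.021, 0.024 and 0.042. Over so few libraries, likeness of this kind describes the values only.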

How the data were processed

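The deposited table gives 1 row per gene. Stranded dUTP libraries were sequenced as single reads, per the labels' protocols. Per the submitters' processing notes, TopHat and edgeR were used and the build was mm10, while the sources used here state no version, annotation or counting program. The header does not name the unit of the sample columns, which were taken as RPKM values made by the authors, being neither whole nor of equal sum. The authors' group means are a normalized signal, and the authors also deposited a ratio, its log2 value, p-values and adjusted p-values, from a program that is not given.

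limma 3.58.1 in R 4.3.3 was fitted to log2(RPKM + 1) over 5 libraries with a variance trend, keeping genes at 1 RPKM or more in 2 or more libraries, two-sided, with Benjamini-Hochberg adjustment over all 11190 genes and a threshold of 0.05. Reads were worked out from the RPKM values and the group means. All values (100.0%) came out whole within 0.01 reads, with 5451728 and 13337084 reads in MycKO 5 and 6 and 14290690 to 17610826 in controls. They served limma-voom with TMM scaling and counting intervals. No libraries agreed within counting noise (chi-square per degree of freedom at least 17.8). Coordinates are from GENCODE vM21 (GRCm38, the mm10 assembly).

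The genes and lists were chosen with earlier results of these data known. Named are all 8 genes, the 2 smallest p-values of each pathway list, Ifng, Tbx21, Il2rg, Ifngr2, Ifnar2, Jak2, Tyk2, Myd88, and the 3 nearest profiles of the 2 genes with the widest range. Myc, Ncr1 and the most abundant gene of marker lists served as checks. Picked with their values in view were Il12b, Cd3e, Ms4a1 and the ratios of Ifngr1 to Ifngr2, Ifnar1 to Ifnar2 and Il2rg to Il21r, which got no test. Marker sums without the most abundant gene of a list, and the marker genes Klrb1c, Klrd1, Klrk1, Eomes, Itga2, Prf1 and Cd4, were added after seeing the data. The limma fit was also run on simulated counts. Every gene there had the same spread between libraries beyond counting error, and cell type markers had no shared shift. These libraries differ in both, so that run does not show how the fit performs here. Alternatives were other scalings, a pseudocount of 0.1, no filter, limma-voom, the authors' test and leaving out each library. Figures were drawn with matplotlib 3.10.9.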

Additional observations from a re-analysis of the deposited data

How the results depend on the processing

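No paired analysis was possible because the groups share no replicate numbers. Of 456 values of 42 named genes under up to 11 alternatives each, 408 kept their direction and their side of the threshold, 20 passed it newly, 21 lost it and 7 turned. When each library was left out, Ifngr1 ran up to 0.15 and Il12rb1, Il2rg and Myd88 down to -0.13, -0.12 and -0.19. Those that turned were Ifngr1 (-0.0031 under median-of-ratios scaling, -0.016 in the authors' deposited table, -0.025 without MycKO 6 and -0.019 without control 3), Il12rb1 (0.016 without control 3), Il2rg (0.039 without control 1) and Myd88 (0.028 without control 2), all near 0, and the cause was not tested. Of the 8 receptor and Stat4 genes, the number past the threshold was 0 with limma under each scaling, pseudocount and filter tried and without each library, and 1 in limma-voom and 1 in the authors' deposited test, Il21r in each. Of the other pathway genes, 2 passed with all libraries, 1 under median-of-ratios scaling, 1 with a pseudocount of 0.1, 1 with no filter, and 0 to 3 when each library was left out. Over all genes, 150 passed, 80 with a pseudocount of 0.1, 442 in the authors' deposited test, and 34 to 217 when each library was left out. Median-of-ratios scaling put the median of all genes at -0.00086, against 0.048. Leaving out 1 MycKO library assumes that the other varies like the controls. The depth of MycKO 5, 5451728 reads, limits the precision of Il12rb1 (198 reads) and Il21r (240 reads) most.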
